A study of Mus musculus with 36 samples.

Results

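The 6 genes described here encode subunits of the phagocyte NADPH oxidase: Cybb, Cyba, Ncf1, Ncf4, Rac1 and Rac2. They were chosen by name, as 6 of the 54232 genes in the count tables, and all 6 were among the 12957 genes that passed the filter on low counts. The data are 36 RNA-seq libraries from BMDM, macrophages that grow out of mouse bone marrow, here over 5 days in M-CSF, the growth factor of the lineage, at 20 ng/mL. The groups were NOS1 KO controls, NOS1 KO cells after 2 h and after 8 h of LPS at 100 ng/mL (lipopolysaccharide, from the outer membrane of Gram-negative bacteria), WT controls, and WT cells after the same treatments, with 6 libraries each. The wild type is given as C65BL6, and no agent other than LPS is named. The labels do not say how the NOS1 KO was made, nor whether 2 libraries of a group came from different animals or cultures. The p-values below thus rest on differences among libraries that may be technical replicates.

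The phagocyte NADPH oxidase carries electrons from NADPH across a membrane to oxygen and makes superoxide, from which macrophages and neutrophils derive oxidants that act against ingested microbes. Its core is a membrane pair, the catalytic subunit gp91phox (Cybb) and its stabilising partner p22phox (Cyba). At rest the regulatory subunits are cytosolic, among them the organiser p47phox (Ncf1) and p40phox (Ncf4), which binds a phagosomal lipid. On activation they move to the membrane pair together with a Rac GTPase, Rac1 or Rac2. Inherited loss of the oxidase causes chronic granulomatous disease, in which phagocytes fail to clear bacteria and fungi.

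Promoters of 3 of the 6 members, not of Ncf4, Rac1 and Rac2, were matched in the RefSeq table used here (GRCm38.p6). They are shown as background to the members. Each sequence is the 250 bases before the annotated start, read 5′ to 3′ on the strand of the gene, with matches to the interferon regulatory factor (IRF) element (GAAA, any 2 bases, then GAAA) on either strand in capitals. All 3 lie on the minus strand, Cybb at chrX:9469325-9469574, Ncf1 at chr5:134229626-134229875 and Cyba at chr8:122432941-122433190. The RefSeq start of Cybb lies within the span that GENCODE gives the gene.
Cybb: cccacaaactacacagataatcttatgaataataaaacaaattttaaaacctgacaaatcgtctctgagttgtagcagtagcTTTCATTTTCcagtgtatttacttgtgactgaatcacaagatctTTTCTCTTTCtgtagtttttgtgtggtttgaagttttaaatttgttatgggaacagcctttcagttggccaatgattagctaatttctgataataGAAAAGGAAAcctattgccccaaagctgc
Ncf1: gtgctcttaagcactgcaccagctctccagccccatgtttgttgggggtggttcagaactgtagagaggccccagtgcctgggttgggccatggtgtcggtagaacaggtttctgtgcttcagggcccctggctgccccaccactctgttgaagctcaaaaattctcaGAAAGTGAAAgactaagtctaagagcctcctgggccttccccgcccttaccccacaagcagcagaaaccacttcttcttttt
Cyba: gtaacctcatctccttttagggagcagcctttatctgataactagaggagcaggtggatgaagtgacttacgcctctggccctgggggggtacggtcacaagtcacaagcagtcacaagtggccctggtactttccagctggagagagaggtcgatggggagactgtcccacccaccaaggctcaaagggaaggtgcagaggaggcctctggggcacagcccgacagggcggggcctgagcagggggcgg
Cybb held 3 matches to the IRF element, at 168 to 159, 124 to 115 and 29 to 20 bases before its start. Ncf1 held 1, at 82 to 73 bases before its start, and Cyba held 0. Of 32851 mouse promoters in windows of the same length, 978 (2.98%) held at least 1. The interferon-gamma activated site TTCNNNGAA, present in 7.02% of promoters, matched once in Ncf1, at 88 to 80 bases before its start, where it overlaps the IRF match. The PU.1 core GAGGAAG (10.6% of promoters) and the NF-kB motif (7.25%) had no match in these 3 windows. A match describes letters only and is not evidence that a factor binds there. A link between the matches in these 3 promoters and the size of the LPS response was not tested.

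Library totals ran from 8953489 to 18482551 counts. All 7 macrophage markers were detected in every group and summed to 12320 to 21060 CPM per library, where CPM are counts scaled to library size. Of other cell types, B cell markers summed to at most 4.85 CPM, T and NK cell markers to at most 0.539 CPM and erythroid and megakaryocyte markers to 53.0 to 270 CPM. Some moved with LPS. In controls, at 2 h and at 8 h the median sums of 4 dendritic cell markers were 1.09, 8.68 and 10.8 CPM in KO-labelled and 1.16, 9.31 and 7.99 CPM in WT-labelled libraries. Those of 10 neutrophil markers were 63.8, 107.9 and 65.0 CPM in KO-labelled and 87.2, 135.5 and 85 CPM in WT-labelled libraries (21.4 to 232 CPM over all libraries), and those of 4 stromal markers 16.6, 18.2 and 32.2 CPM and 34.6, 34.4 and 53.7 CPM. Their part in the LPS results below was not tested. Skeletal muscle markers reached 3288 CPM in WT LPS 8 h replicate 5, 409 CPM in WT LPS 2 h replicate 6 and 144 CPM in WT LPS 2 h replicate 5. Nos1 went against the KO label that names it, with 10 to 83 counts in KO-labelled libraries and 0 to 8 counts in WT-labelled libraries. Groups are therefore named by their labels, and every direction between them rests on those labels. After group means were removed, the first principal component (32.8% of the variance) split every group into 3 libraries of set A (replicates 1, 2 and 6) and 3 of set B (replicates 3, 4 and 5). The labels name neither set. Because the sets were found from these counts, p-values of fits within a set or with the set as a term may be too small.

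The LPS comparisons asked how the transcripts of the oxidase change as macrophages are activated. After 8 h all 6 members were called higher than in controls under both genotype labels, and the sizes differed widely. On the scale of CPM with library sizes adjusted by the trimmed mean of M-values (TMM), Cybb rose 8.97-fold in KO-labelled and 10.2-fold in WT-labelled macrophages. Rac1 rose 1.19-fold in KO-labelled and 1.18-fold in WT-labelled macrophages, but fell when libraries were scaled by their totals alone, as described below. In such bulk samples fewer cells of a type and less RNA per cell cannot be told apart. After 2 h, 4 of 6 members were called higher in KO-labelled libraries, where 18.9% of all genes tested were, and 6 of 6 in WT-labelled libraries, where 20.3% were. After 8 h the 6 of 6 stood beside 34.9% of all genes tested in KO-labelled and 34.2% in WT-labelled libraries. Under library totals alone 2 of 6 were called higher and 1 lower at 2 h in KO-labelled libraries, and 3 higher and 1 lower in WT-labelled libraries. At 8 h this scaling left 4 higher under both labels, with 2 lower in KO-labelled and 1 lower in WT-labelled libraries. A gene was called at an adjusted p below 0.05 by edgeR's quasi-likelihood test with Benjamini-Hochberg adjustment over all genes tested.

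Cybb (ENSMUSG00000015340, mm10 chromosome X, 9435252 to 9487771, minus strand, 13 exons in its longest transcript) encodes the catalytic, electron-carrying subunit. In KO-labelled libraries its lowest, median and highest values were 341, 402 and 432 CPM in controls, 1039, 1214 and 1348 CPM at 2 h, and 3195, 3266 and 4155 CPM at 8 h. In WT-labelled libraries they were 328, 346 and 425 CPM in controls, 1012, 1173 and 1593 CPM at 2 h, and 3363, 3617 and 3998 CPM at 8 h. Within each genotype label no library of one treatment overlapped those of another, while the KO-labelled and WT-labelled ranges overlapped at every time. The log2 fold change in KO-labelled libraries was 1.61 ± 0.10 at 2 h (SE; edgeR adjusted p = 1.34e-15) and 3.16 ± 0.10 at 8 h (adjusted p = 1.52e-23). In WT-labelled libraries it was 1.80 ± 0.10 at 2 h (edgeR adjusted p = 6.68e-17) and 3.35 ± 0.11 at 8 h (adjusted p = 3.96e-24). At 8 h Cybb ranked 40 by mean CPM among the 54232 genes in KO-labelled and 36 in WT-labelled libraries, against ranks of 253 and 289 in the controls of the same labels. CPM are not divided by gene length, so these ranks do not order transcript levels between genes.

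Cyba (ENSMUSG00000006519, chromosome 8, 122424776 to 122432930, minus strand, 6 exons) encodes the partner that stabilises the catalytic subunit. Its lowest, median and highest values in KO-labelled libraries were 437, 454 and 514 CPM in controls, 512, 542 and 587 CPM at 2 h, and 665, 735 and 821 CPM at 8 h. In WT-labelled libraries they were 404, 451 and 469 CPM in controls, 535, 549 and 563 CPM at 2 h, and 664, 712 and 789 CPM at 8 h. Only the KO-labelled 2 h and control ranges overlapped, with 5 of 6 treated libraries above the highest control. The log2 fold change in KO-labelled libraries was 0.22 ± 0.06 at 2 h (edgeR adjusted p = 0.00407) and 0.65 ± 0.06 at 8 h (adjusted p = 1.49e-11) on the TMM scale. Under library totals alone these values were -0.08 (adjusted p = 0.298) and -0.17 (adjusted p = 0.0108, edgeR). In WT-labelled libraries they were 0.31 ± 0.06 (edgeR adjusted p = 0.000108) and 0.70 ± 0.06 (adjusted p = 3.52e-12), against 0.0008 and -0.08 under library totals alone.

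**Figure D1:**
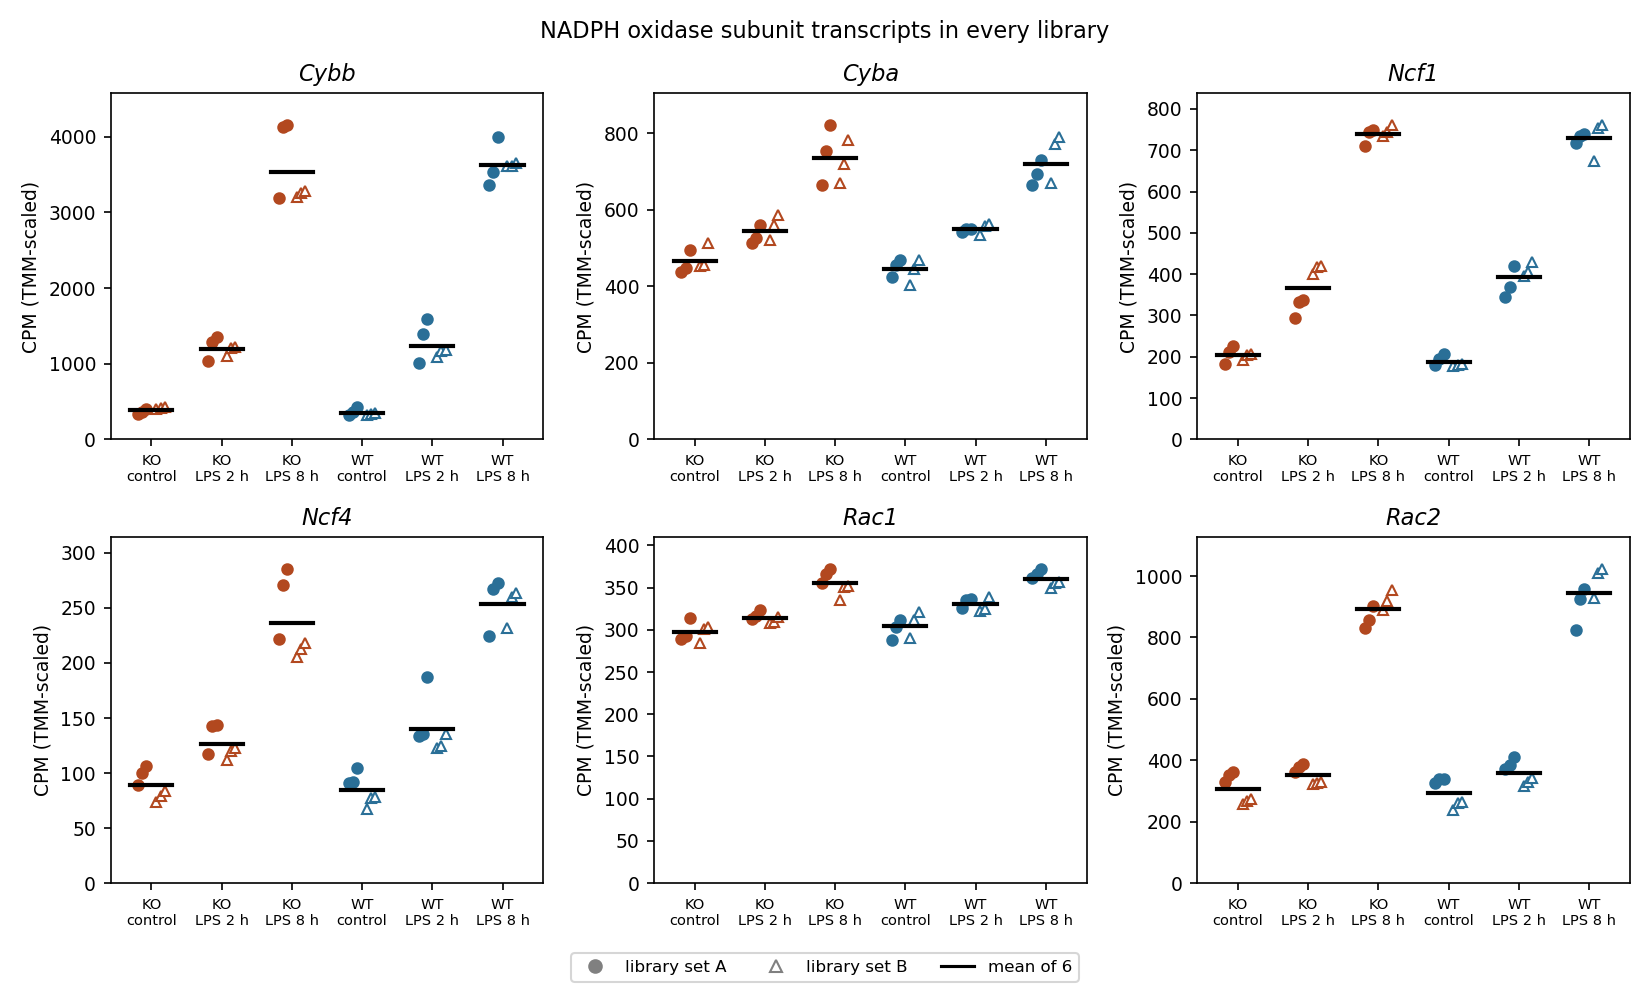
CPM on TMM-scaled library sizes of each member in all 36 libraries, in 6 panels with linear axes from 0. Columns are the groups (KO-labelled left, WT-labelled right, each as control, LPS 2 h, LPS 8 h), filled circles are set A, open triangles set B, and bars the mean of 6. Cybb separates by treatment without overlap and reaches 3195 CPM or more at 8 h, while Rac1 stays between 284 and 372.4 CPM; under scaling by library totals alone Cyba and Rac1 do not rise.

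Ncf1 (ENSMUSG00000015950, chromosome 5, 134220053 to 134229625, minus strand, 10 exons) encodes the organiser that is phosphorylated on activation and brings the cytosolic subunits to the membrane. Its lowest, median and highest values in KO-labelled libraries were 183, 205 and 227 CPM in controls, 294, 369.8 and 419 CPM at 2 h, and 709, 744 and 761 CPM at 8 h. Those of WT-labelled libraries were 178, 181 and 207 CPM in controls, 346, 401 and 429.6 CPM at 2 h, and 673, 736 and 760.0 CPM at 8 h. No 2 treatments overlapped within a label. The log2 fold change in KO-labelled libraries was 0.85 ± 0.07 at 2 h (edgeR adjusted p = 1.3e-11) and 1.86 ± 0.08 at 8 h (adjusted p = 3.63e-21). In WT-labelled libraries it was 1.08 ± 0.07 (edgeR adjusted p = 2.64e-14) and 1.96 ± 0.08 (adjusted p = 8.99e-22). At 8 h the spread between KO-labelled libraries was small, at 740 ± 17.5 CPM (SD, n = 6). Ncf1 shares 408 exonic bases with Gtf2ird2 on the opposite strand, which held 6252 counts over all libraries against 179612 of Ncf1. Gtf2ird2 was also called higher with LPS by edgeR, by 1.18 ± 0.21 at 2 h and 1.20 ± 0.21 at 8 h in KO-labelled and 1.26 ± 0.21 and 1.29 ± 0.21 in WT-labelled libraries (log2), and its part in the Ncf1 counts was not tested.

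Ncf4 (ENSMUSG00000071715, chromosome 15, 78244801 to 78262580, plus strand, 10 exons) encodes the subunit that binds phosphatidylinositol 3-phosphate on phagosomes. In KO-labelled libraries its lowest, median and highest values were 74.2, 86.5 and 107 CPM in controls, 112, 121 and 143 CPM at 2 h, and 206, 220.3 and 286 CPM at 8 h. The WT-labelled values were 67.5, 84.6 and 104 CPM in controls, 123, 134 and 188 CPM at 2 h, and 225, 262 and 272 CPM at 8 h. The treatments did not overlap within a label, and WT LPS 2 h replicate 1 stood apart from the other libraries of its group, which reached at most 136 CPM. The log2 fold change in KO-labelled libraries was 0.51 ± 0.11 at 2 h (edgeR adjusted p = 0.000353) and 1.41 ± 0.11 at 8 h (adjusted p = 2.44e-13). In WT-labelled libraries it was 0.72 ± 0.11 (edgeR adjusted p = 1.97e-06) and 1.58 ± 0.11 (adjusted p = 1.49e-14). Under library totals alone the KO-labelled 2 h change was 0.21 and was not called (adjusted p = 0.0987).

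Rac1 (ENSMUSG00000001847, chromosome 5, 143503634 to 143528036, minus strand, 6 exons) encodes a small GTPase found in nearly all cells, which also drives the actin cytoskeleton. In KO-labelled libraries its lowest, median and highest values were 284, 297 and 314 CPM in controls, 308, 314 and 324 CPM at 2 h, and 335, 354 and 371.8 CPM at 8 h. Those of WT-labelled libraries were 288, 308 and 321 CPM in controls, 322, 330.4 and 339 CPM at 2 h, and 349, 359 and 372.4 CPM at 8 h. These ranges were narrow, and only the KO-labelled 2 h and control libraries overlapped. The log2 fold change at 8 h was 0.26 ± 0.04 in KO-labelled libraries (edgeR adjusted p = 2.79e-06) and 0.24 ± 0.04 in WT-labelled libraries (adjusted p = 7.09e-06), but -0.57 and -0.53 under library totals alone, called in both cases (adjusted p = 3.57e-14 and 2.15e-13). At 2 h it was 0.08 ± 0.04 in KO-labelled libraries and not called (edgeR adjusted p = 0.162), and 0.12 ± 0.04 in WT-labelled libraries (adjusted p = 0.0283), or -0.22 and -0.19 under library totals alone. The WT-labelled call at 2 h was also lost in 6 other alternatives, with adjusted p between 0.0623 and 0.18. Rac1 shares 2309 exonic bases with Daglb on the opposite strand, which held 27306 counts over all libraries against 145093 of Rac1. Daglb changed by -2.36 ± 0.31 at 8 h in KO-labelled and -2.48 ± 0.32 in WT-labelled libraries (log2, edgeR adjusted p = 4.14e-08 and 1.92e-08), and since the strand setting of the counting is not known, its part in the Rac1 counts was not tested.

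Rac2 (ENSMUSG00000033220, chromosome 15, 78559167 to 78572783, minus strand, 7 exons) encodes the Rac GTPase that is largely limited to blood cells. In KO-labelled libraries its lowest, median and highest values were 257, 302 and 362 CPM in controls, 322, 346 and 388.9 CPM at 2 h, and 831, 895 and 955 CPM at 8 h. The WT-labelled values were 238.3, 296 and 339 CPM in controls, 317, 356 and 411 CPM at 2 h, and 825, 942 and 1024 CPM at 8 h. The 2 h libraries overlapped the controls under both labels, and the 8 h libraries stood above all others. The log2 fold change at 8 h was 1.54 ± 0.09 in KO-labelled libraries (edgeR adjusted p = 2.97e-16) and 1.68 ± 0.10 in WT-labelled libraries (adjusted p = 3.14e-17). At 2 h it was 0.19 ± 0.09 in KO-labelled libraries and not called (edgeR adjusted p = 0.11), and 0.28 ± 0.09 in WT-labelled libraries (adjusted p = 0.0143), or -0.11 and -0.03 under library totals alone. With the library set as a term the KO-labelled change of Rac2 was called (0.20, edgeR adjusted p = 0.0362), as in set B alone (0.28, adjusted p = 9.54e-06). The WT-labelled call was lost when only the compared groups were fitted (edgeR adjusted p = 0.0757) and in set A alone (adjusted p = 0.0556).

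The size of each response depended on the scaling of the libraries. LPS moved the median of all genes tested by -0.31 at 2 h and -0.88 at 8 h in KO-labelled libraries under library totals alone (log2), and by -0.32 and -0.83 in WT-labelled libraries. Under TMM these medians lay between -0.06 and -0.01. Cybb changed by 2.34 in KO-labelled and 2.58 in WT-labelled libraries at 8 h under library totals alone, Ncf1 by 1.04 and 1.19, Rac2 by 0.71 and 0.91, and Ncf4 by 0.58 and 0.80. Genes called higher at 8 h made up 16.7% of those tested in KO-labelled libraries under library totals alone and genes called lower 68.9%, against 34.9% and 37.1% under TMM. In WT-labelled libraries the shares were 16.9% and 68.2%, against 34.2% and 37.0%. At 2 h genes called higher made up 11.4% in KO-labelled and 12.2% in WT-labelled libraries under library totals alone.

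**Figure D2:**
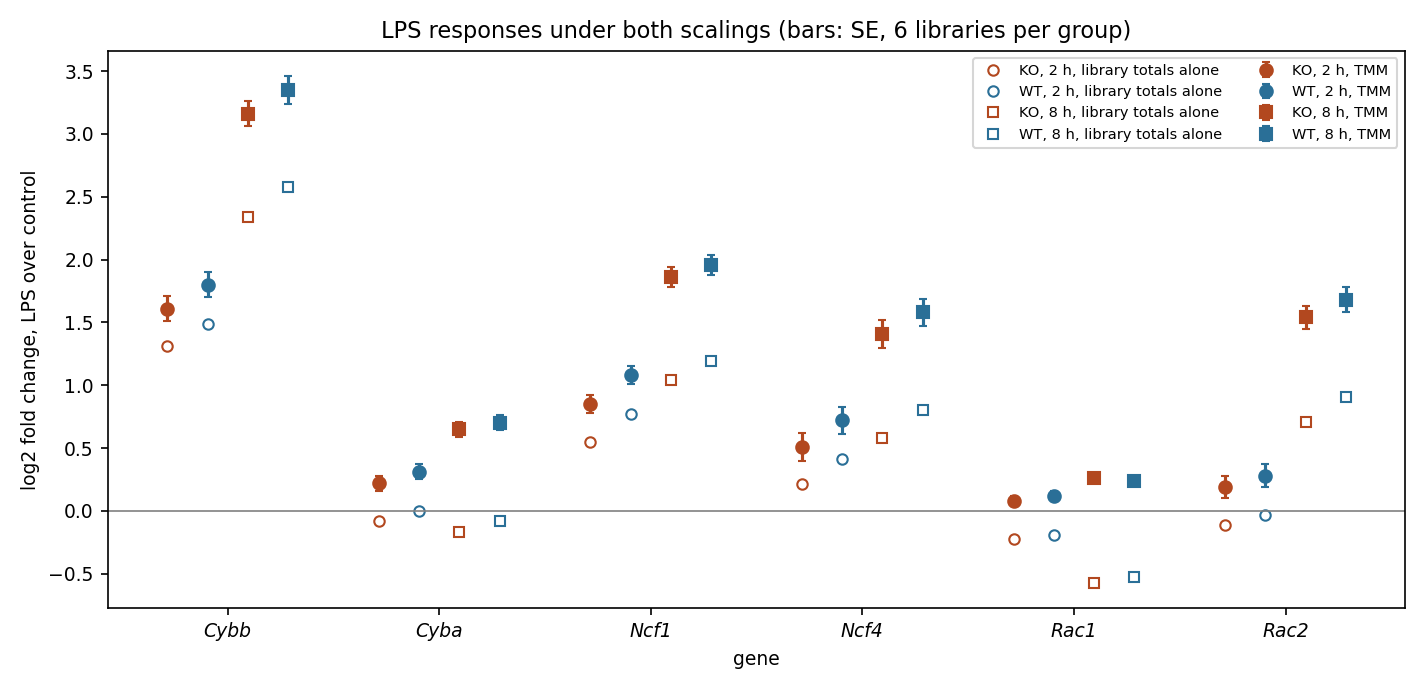
Log2 fold change of LPS over control for each member. Filled symbols are the TMM-scaled fit with bars of 1 SE, open symbols the fit on library totals alone; circles are 2 h and squares 8 h, orange KO-labelled and blue WT-labelled (6 libraries per group). Filled symbols lie above 0 for every member, and open symbols of Cyba (except WT at 2 h, at 0.0008), of Rac1 at both times and of Rac2 at 2 h lie below 0.

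Between 2 and 8 h all 6 members were called higher under both labels on the TMM scale, where 31.5% of all genes tested were higher in KO-labelled and 30.0% in WT-labelled libraries. Cybb rose by 1.56 ± 0.10 in KO-labelled and 1.55 ± 0.10 in WT-labelled libraries over this interval, Rac2 by 1.35 ± 0.09 and 1.40 ± 0.09, Ncf1 by 1.01 ± 0.07 and 0.89 ± 0.07, and Ncf4 by 0.90 ± 0.11 and 0.86 ± 0.11 (log2, SE). Cyba rose by 0.43 ± 0.06 and 0.39 ± 0.06 on this scale, and Rac1 by 0.18 ± 0.04 and 0.12 ± 0.04, whereas under library totals alone Cyba stood at -0.10 and -0.08 and Rac1 at -0.35 and -0.34. The Rac1 increase lost its call with no count filter in KO-labelled (edgeR adjusted p = 0.184) and WT-labelled libraries (adjusted p = 0.556). In WT-labelled libraries it was further lost with compared groups only, in set A alone and without the libraries labelled BMDM (edgeR adjusted p between 0.0624 and 0.116). A contrast of the change from 2 to 8 h minus the change over the first 2 h, added after seeing the data, was called higher for 1 of 6 members, Rac2, under both labels, where 22.4% of all genes tested were higher in KO-labelled and 20.5% in WT-labelled libraries. For Rac2 it was 1.15 ± 0.16 in KO-labelled libraries (edgeR adjusted p = 4.81e-07) and 1.11 ± 0.16 in WT-labelled libraries (adjusted p = 9.71e-07). For Cybb it was -0.05 ± 0.17 and -0.25 ± 0.17, neither called. The count of 1 of 6 is below the share over all genes, and Rac2 was not tested against the other members. In KO-labelled libraries this contrast was also called higher for Ncf4 with the set term (edgeR adjusted p = 0.0232) or within set B (0.27, adjusted p = 0.0249), for Cyba by DESeq2 (adjusted p = 0.0384) and for Ncf1 in set A (0.56, edgeR adjusted p = 0.0154). For Ncf1 it was -0.18 in set B, and the sets differed by -0.74 (edgeR adjusted p = 0.0102, 8.04% of all genes tested called). In WT-labelled libraries the further calls were lower. They were Cybb (-0.40) and Ncf1 (-0.35) under library totals alone, and Ncf1 (-0.35) in set B.

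Levels can be set between genes only per length, here as RPKM, CPM divided by the length of the exon union in kilobases. Rac1 shares 2309 of its 4496 exon-union bases with Daglb, and reads there may be lost or counted for the wrong gene. The RPKM of Rac1 and its place in the order are therefore uncertain. In KO-labelled controls Cyba stood at 449 ± 29.4 RPKM, Rac2 at 98.9 ± 14.7, Cybb at 67.9 ± 5.88, Rac1 at 66.2 ± 2.41, Ncf1 at 55.7 ± 4.18 and Ncf4 at 44.0 ± 6.18 RPKM (SD, n = 6). In WT-labelled controls the order was the same except that Rac1 (67.7 ± 2.89 RPKM) preceded Cybb (61.3 ± 6.29 RPKM), 2 neighbours whose ranges overlapped under both labels. Transcripts of the stabilising partner were thus several times as abundant as those of the catalytic subunit without LPS. At 8 h Cyba (707 ± 59.7 RPKM) and Cybb (609 ± 80.9 RPKM) overlapped in KO-labelled libraries, as did Cyba (692 ± 50.5 RPKM) and Cybb (625 ± 35.9 RPKM) in WT-labelled libraries. Below them came Rac2 at 287 ± 14.3 RPKM in KO-labelled and 304.5 ± 23.2 in WT-labelled libraries, then Ncf1 at 202 ± 4.79 and 199 ± 8.54, Ncf4 at 117 ± 16.7 and 125 ± 9.84, and Rac1 at 79.0 ± 2.87 and 80.1 ± 1.87 RPKM, with no overlap between neighbours. At 2 h the Rac2 and Ncf1 ranges overlapped, and so did those of Rac1 and Ncf4. Lengths of the longest transcript in place of the exon union exchanged the places of both these pairs at 2 h. In WT-labelled controls they placed Cybb (75.0 RPKM) before Rac1 (73.2 RPKM), the order of the KO-labelled controls. The 6 members together took 0.216% to 0.241% of all counts in KO-labelled and 0.202% to 0.238% in WT-labelled controls, and 0.447% to 0.504% in KO-labelled and 0.458% to 0.534% in WT-labelled libraries at 8 h.

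**Figure D3:**
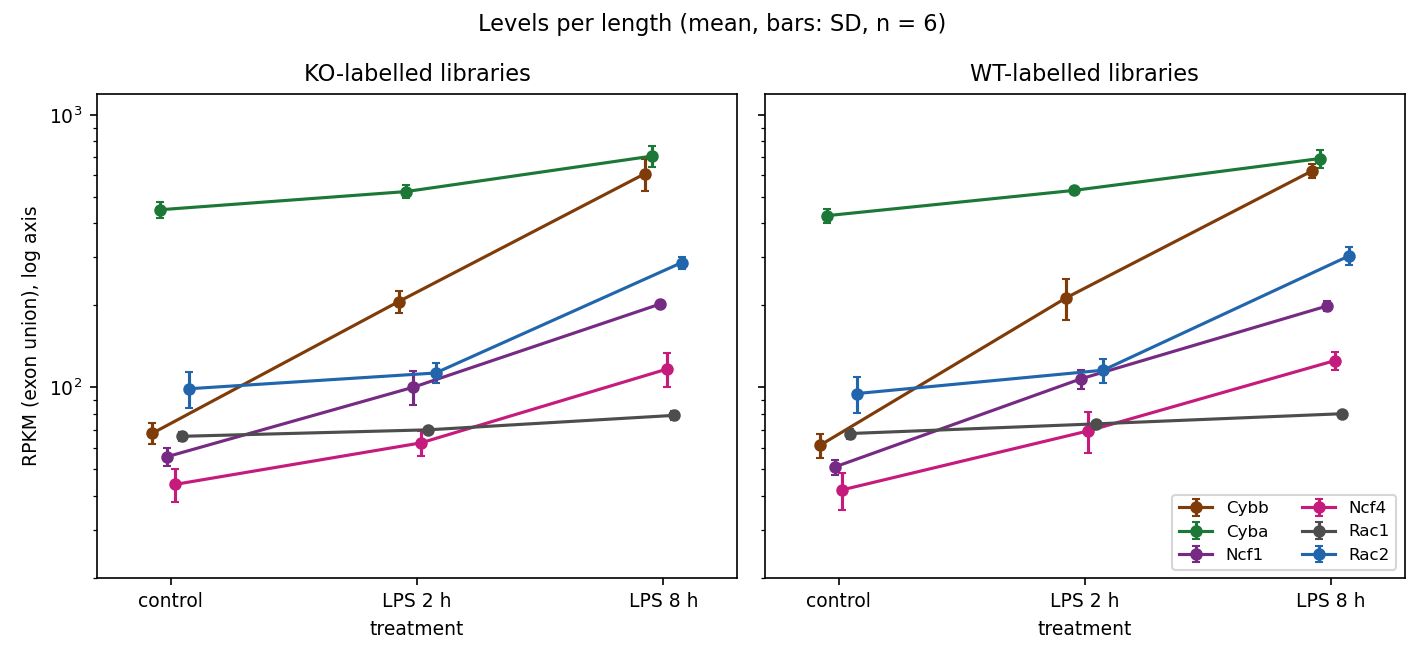
Mean RPKM over the exon union (log axis, bars 1 SD, n = 6) of the 6 members against treatment, KO-labelled libraries on the left and WT-labelled on the right. Cyba and Cybb lie far apart in controls (449 and 67.9 RPKM in KO-labelled libraries) and overlap at 8 h (707 and 609 RPKM), and Rac1 moves from the middle of the order to its lowest place. The RPKM of Rac1 is uncertain because its exons overlap those of Daglb.

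Ratios of 2 members within a library do not depend on how libraries are scaled, so they were compared between groups with two-sided exact permutation tests over all arrangements of the libraries (21 tests, Benjamini-Hochberg adjusted, smallest possible p = 0.00216). These tests were added after seeing the data. The lowest, median and highest ratio of Rac2 to Rac1 in KO-labelled libraries were 1.28, 1.48 and 1.74 in controls, 1.497, 1.60 and 1.80 at 2 h, and 3.34, 3.68 and 3.94 at 8 h. The WT-labelled ratios were 1.075, 1.44 and 1.71 in controls, 1.41, 1.57 and 1.83 at 2 h, and 3.21, 3.85 and 4.16 at 8 h. The 8 h libraries were separate from all others. The log2 ratio was higher at 8 h than in controls by 1.29 in KO-labelled and 1.45 in WT-labelled libraries, in 6 of 6 libraries each (exact permutation p = 0.00216, the smallest possible, adjusted 0.00758). At 2 h the differences were 0.12 and 0.17 (exact permutation, adjusted p = 0.336 for both). Reads of Daglb may be among those of Rac1, or Rac1 reads may be lost where the 2 genes overlap. Daglb itself changed by -2.36 in KO-labelled and -2.48 in WT-labelled libraries at 8 h (log2). Both the absolute ratio and its change at 8 h are therefore less certain than those of other pairs, and the part of Daglb was not tested.

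The ratio of Cybb to Cyba moved earlier. Its lowest, median and highest values in KO-labelled libraries were 0.133, 0.152 and 0.171 in controls, 0.335, 0.402 and 0.437 at 2 h, and 0.751, 0.858 and 0.981 at 8 h. Those of WT-labelled libraries were 0.129, 0.135 and 0.18 in controls, 0.330, 0.384 and 0.526 at 2 h, and 0.828, 0.908 and 0.98 at 8 h. No treatments overlapped within a label. The log2 ratio was higher than in controls by 1.38 at 2 h and 2.51 at 8 h in KO-labelled libraries, and by 1.48 and 2.66 in WT-labelled libraries (exact permutation, adjusted p = 0.00758 each). The ratio of Ncf1 to Ncf4 changed less, by 0.46 at 8 h in KO-labelled libraries (exact permutation, adjusted p = 0.0284) and 0.38 in WT-labelled libraries (adjusted p = 0.013). Its 2 h differences of 0.33 and 0.36 were not below the threshold (exact permutation, adjusted p = 0.114 and 0.0556). Between KO-labelled and WT-labelled libraries none of the 9 ratio differences passed, with adjusted p of at least 0.336 and differences between -0.08 and 0.13.

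**Figure D4:**
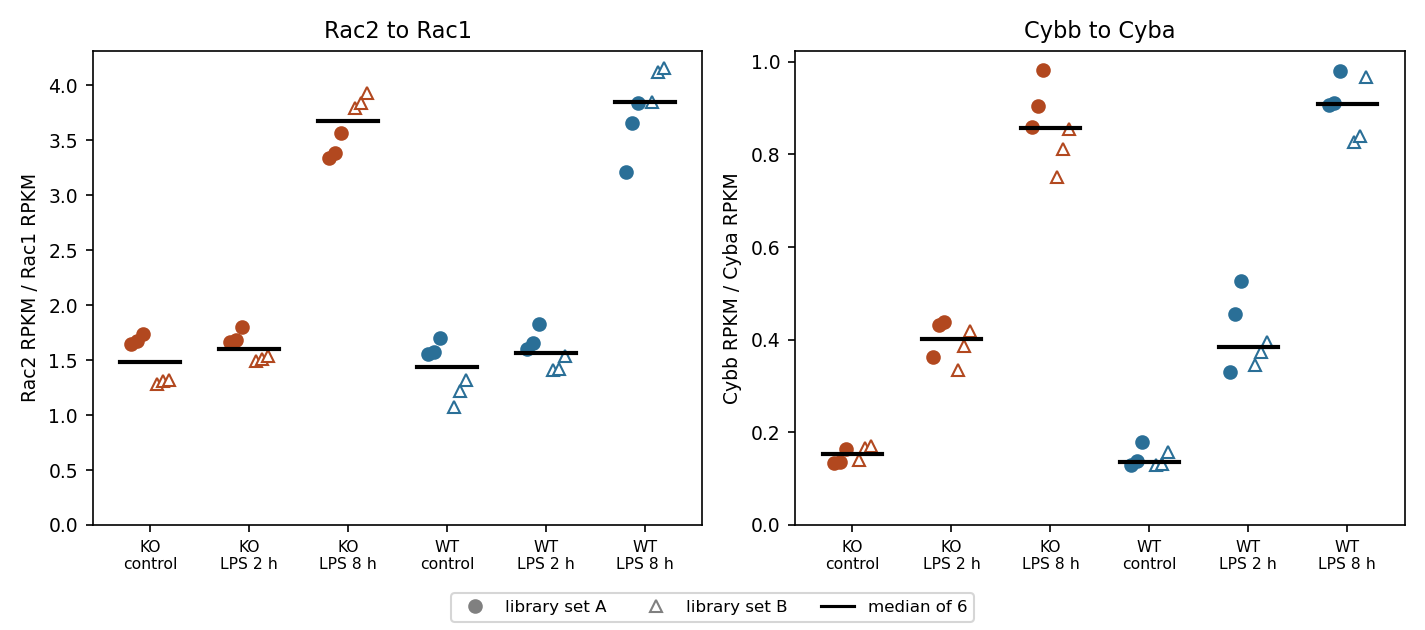
Ratio of Rac2 to Rac1 (left) and of Cybb to Cyba (right) in each library, from RPKM, on linear axes from 0. Columns are the groups with KO-labelled left of WT-labelled, filled circles set A, open triangles set B, and bars the median of 6. The Rac2 to Rac1 ratio is between 1.075 and 1.83 in controls and at 2 h and at least 3.21 at 8 h, whereas the Cybb to Cyba ratio already separates from controls at 2 h.

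The comparison of genotype labels asked whether the label changes the oxidase transcripts at rest or after LPS. Of the 6 members 0 were called at any time, where 0.123% of all genes tested were called in controls, 0.0232% at 2 h and 0.1% at 8 h. The same count was 0 with DESeq2 and with limma-voom, and 0 members had an unadjusted p below 0.05 in edgeR. In controls Cybb averaged 394.3 ± 34.1 CPM under the KO label and 356 ± 36.5 CPM under the WT label (SD, n = 6 each), a log2 difference of 0.15 with a 95% interval of -0.04 to 0.34. At 8 h it averaged 3536 ± 470 CPM under the KO label and 3629 ± 208 CPM under the WT label, a difference of -0.04 (-0.23 to 0.15). At 2 h the interval nearest to leaving 0 was that of Rac1, from -0.16 to 0.01. Over the 18 differences the lowest bound was -0.36, for Ncf4 at 2 h and the highest 0.34, for Cybb in controls. In a tested interaction of label and LPS response, 0 of 6 members were called at 2 h or 8 h (0.0% of all genes tested at both times, by edgeR). Differences of some size remain possible, with 95% intervals of -0.52 to 0.09 for Ncf4 at 2 h and -0.45 to 0.08 for Cybb at 8 h (log2). Unadjusted p below 0.05 was reached by 153 genes at 2 h and 540 at 8 h, and DESeq2 called 0 and 4 genes and limma-voom 0 and 0. The member with an unadjusted p below 0.05 was Ncf1, whose 2 h response was lower by 0.23 ± 0.10 on the log2 scale in KO-labelled libraries (log2 difference -0.23, adjusted p = 1.0 by edgeR).

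The label comparison was also made within each library set. Libraries of a set are alike by selection, since the sets were found from these counts. The p-values within a set may thus be too small and are given as a description. In set A alone, with 3 libraries against 3, 0 members were called at any time (0.0548%, 0.0704% and 0.0548% of all genes tested in controls, at 2 h and at 8 h). In set B alone 2 of 6 were called in controls, where 10.8% of all genes tested were called. These were Cybb, with a log2 difference of 0.32 ± 0.05 (edgeR adjusted p = 6.78e-06), and Ncf1, with 0.17 ± 0.05 (adjusted p = 0.0172). The same differences in set A were -0.01 ± 0.16 for Cybb and 0.09 ± 0.10 for Ncf1. At 2 h 0 members were called in set B (10.8% of all genes tested), and at 8 h 2 were (31.4%), Cybb at -0.17 ± 0.05 (edgeR adjusted p = 0.00699) and Ncf4 at -0.25 ± 0.06 (adjusted p = 0.000656). In set A these were 0.08 ± 0.16 and 0.03 ± 0.14. The 8 h response of Cybb was smaller under the KO label than under the WT label in set B by 0.48 (log2 difference -0.48 ± 0.07, edgeR adjusted p = 1.29e-06, 16.7% of all genes tested called), against 0.09 ± 0.22 in set A. Its 2 h response differed by -0.27 ± 0.07 in set B (edgeR adjusted p = 0.0367, 1.13% of all genes tested called). For Ncf4 the 8 h response differed by -0.36 ± 0.08 in set B (edgeR adjusted p = 0.00194) and -0.02 ± 0.19 in set A. The difference between the sets in these label comparisons, tested in a fit with 12 means, was called for 0 of 6 members by edgeR in controls (1.94% of all genes tested), at 2 h (2.16%), at 8 h (5.68%) and in the interactions at 2 h (0.0154%) and 8 h (1.68%). For Cybb the set B minus set A difference was 0.32 in controls (edgeR adjusted p = 0.509), -0.24 at 8 h (adjusted p = 0.495) and -0.55 in the 8 h interaction (adjusted p = 0.33), and for Ncf4 it was -0.27 at 8 h (adjusted p = 0.356) and -0.32 in the 8 h interaction (adjusted p = 0.62). Each set holds 3 libraries per group, and what separates the sets was not tested.

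**Figure D5:**
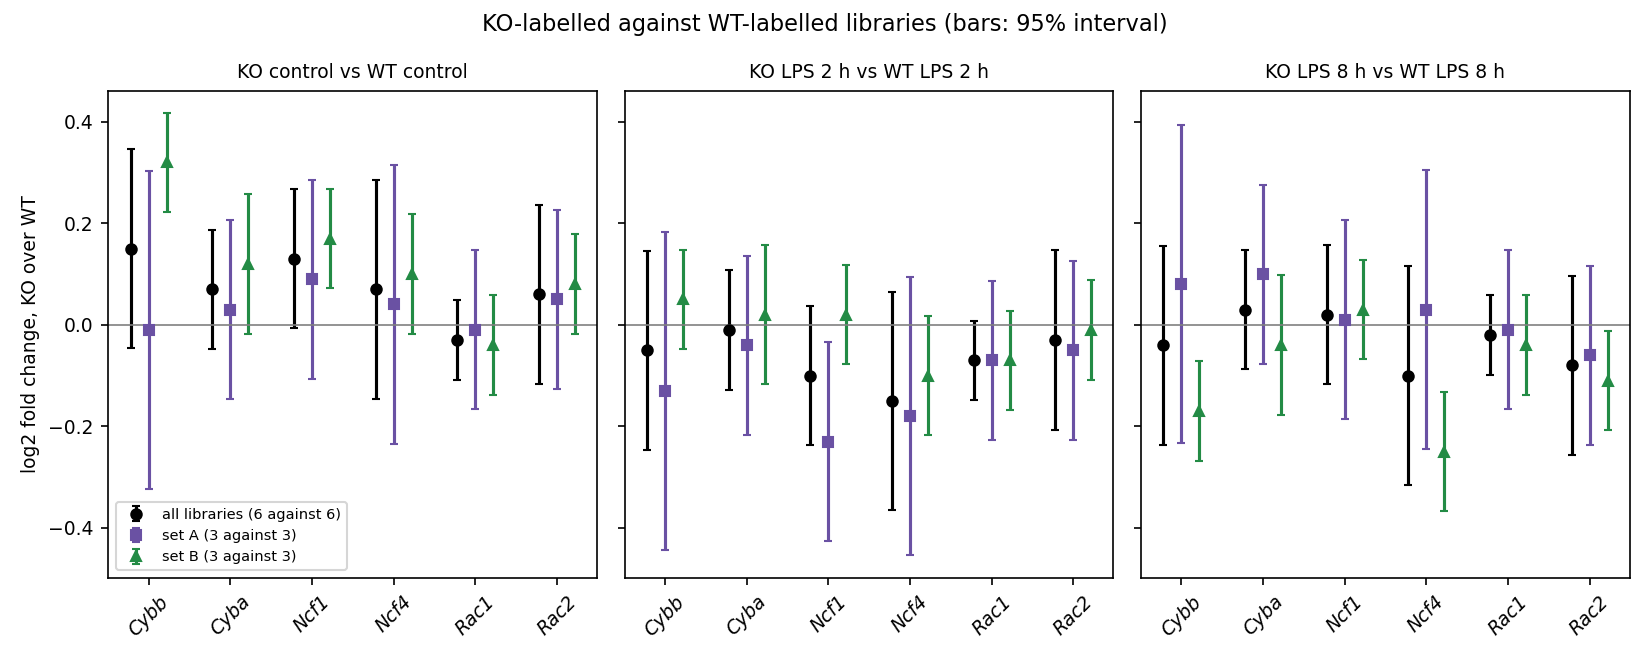
Log2 difference of KO-labelled over WT-labelled libraries for each member in controls (left), at 2 h (middle) and at 8 h (right), with 95% intervals. Black circles are all libraries (6 against 6), violet squares set A and green triangles set B (3 against 3). All black intervals cross 0, while set B has Cybb at 0.32 in controls and at -0.17 at 8 h.

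The sets also differed in the level of single members, which is given as a description because the sets were found from these counts. Of all genes tested, edgeR called 35.8% between the sets in KO-labelled and 28.6% in WT-labelled controls. These shares were 41.6% and 38.4% at 2 h, and 34.8% and 29.4% at 8 h. Rac2 and Ncf4 were called in both control groups, Rac2 also at 2 h under both labels. In KO-labelled libraries Ncf1 was called at 2 h and Ncf4 at 8 h. How many of all genes separated without overlap was not counted. Rac2 in set B stood below all set A libraries in controls, at 257 to 275 CPM against 329 to 362 CPM under the KO label and 238.3 to 265 CPM against 326 to 339 CPM under the WT label. At 8 h it did not, with 888 to 955 CPM in set B against 831 to 901 CPM in set A of KO-labelled libraries. Its 8 h log2 fold change was accordingly 1.79 ± 0.05 in set B and 1.32 ± 0.09 in set A of KO-labelled libraries, and 1.97 ± 0.05 and 1.43 ± 0.09 in WT-labelled libraries. Ncf4 was also lower in set B of the controls, at 74.2 to 83.9 CPM against 89.1 to 107 CPM in KO-labelled libraries. In WT-labelled controls these ranges were 67.5 to 78.4 CPM against 90.7 to 104 CPM. At 8 h Ncf4 was lower in set B of KO-labelled libraries, at 206 to 218 CPM against 222 to 286 CPM. Ncf1 separated by set in KO-labelled libraries at 2 h, with 401 to 419 CPM in set B and 294 to 338 CPM in set A. Cybb separated in KO-labelled controls, with 406 to 432 CPM in set B and 341 to 399 CPM in set A, but was not called (edgeR adjusted p = 0.23). Rac1 separated at 8 h, with 335 to 352 CPM in set B and 355 to 371.8 CPM in set A of KO-labelled libraries, and 349 to 357 CPM and 361 to 372.4 CPM in WT-labelled libraries. Neither Rac1 difference was called (edgeR adjusted p = 0.324 in KO-labelled and 0.538 in WT-labelled libraries). Cyba overlapped between the sets in all 6 groups, and Rac1 in both control groups.

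Genes around the oxidase were read from lists chosen with earlier results of these data known. At 8 h 34.9% of all genes tested were called higher and 37.1% lower in KO-labelled libraries, and 34.2% and 37.0% in WT-labelled libraries. Beside these shares, of 10 oxidase partners 7 were called higher and 0 lower under both labels, with a median log2 change of 0.45 in KO-labelled and 0.48 in WT-labelled libraries against -0.06 over all genes. At 2 h 3 were higher and 1 lower under both labels, where 18.9% of all genes tested were higher and 16.4% lower in KO-labelled and 20.3% and 17.6% in WT-labelled libraries. Rap1b, a small GTPase of the Ras family, averaged 1679 ± 94.5 CPM at 8 h in KO-labelled libraries, against 416 ± 39.4 CPM in their controls. Its log2 change was 2.01 ± 0.07 in KO-labelled and 1.94 ± 0.07 in WT-labelled libraries (edgeR adjusted p = 6.48e-23 and 1.62e-22). Rhog, a further small GTPase, changed by 1.37 ± 0.11 and 1.42 ± 0.11, and Rac3, another Rac gene with at most 18.6 CPM, by 1.17 ± 0.18 and 0.85 ± 0.18. Of 9 other NADPH oxidase family genes 2 passed the filter. Nox1, the catalytic subunit best known from colon, changed by 4.10 ± 0.39 in KO-labelled and 4.72 ± 0.42 in WT-labelled libraries, but stood at 9.55 ± 3.58 and 8.00 ± 1.299 CPM at 8 h, and Noxo1, its organiser, at 0.21 ± 0.208 and 0.139 ± 0.124 CPM.

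Exchange factors switch Rac on. The list of 11 genes for this step holds exchange factors and Elmo1, a partner of Dock exchange factors. Of these 11 genes 4 were called higher and 6 lower at 8 h in KO-labelled libraries (median -0.50). In WT-labelled libraries 3 were higher and 6 lower (median -0.63). These counts stand beside 34.9% higher and 37.1% lower over all genes in KO-labelled and 34.2% and 37.0% in WT-labelled libraries. Prex1, an exchange factor activated by G protein and lipid signals, changed by 1.85 ± 0.17 under both labels, and Vav1, one phosphorylated by tyrosine kinases, by 1.02 ± 0.07 and 0.83 ± 0.07. Def6 changed by -2.07 ± 0.10 and -1.76 ± 0.10, and Vav2 by -1.91 ± 0.14 and -1.65 ± 0.14. Of 11 tested kinases that act upstream of the oxidase 4 were higher and 4 lower under both labels, near the same shares over all genes. Among those that rose were Pik3cd, a phosphoinositide kinase (2.09 ± 0.12 and 1.87 ± 0.12), Syk, a tyrosine kinase (1.96 ± 0.11 and 2.18 ± 0.11), and Prkcd, a protein kinase C that phosphorylates the organiser (1.88 ± 0.14 and 2.19 ± 0.14). Mapk14, the p38 kinase, changed by -0.98 ± 0.20 and -0.69 ± 0.20.

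Transcription factors known to act on oxidase genes were higher in 6 of 8 cases and lower in 1 at 8 h under both labels (medians 1.71 in KO-labelled and 1.47 in WT-labelled libraries), against 34.9% higher and 37.1% lower over all genes in KO-labelled and 34.2% and 37.0% in WT-labelled libraries. Irf1, an interferon-induced member of the IRF family, had medians of 30.4, 714 and 708 CPM in KO-labelled controls, at 2 h and at 8 h, and 26.3, 792 and 694 CPM in WT-labelled controls, at 2 h and at 8 h. Its 2 h and 8 h ranges overlapped under both labels, and a link between Irf1 and the members was not tested. Cebpb, an inducible factor of myeloid cells, changed by 3.15 ± 0.21 at 8 h in KO-labelled and 2.76 ± 0.21 in WT-labelled libraries. Cebpa, a factor of myeloid differentiation, changed by -5.14 ± 0.24 and -4.75 ± 0.24 and stood at 3.04 ± 1.33 and 3.78 ± 1.44 CPM at 8 h. Of 12 genes that remove superoxide and peroxide 7 were higher and 4 lower at 8 h under both labels, beside the same shares over all genes. Sod2, the mitochondrial superoxide dismutase, averaged 1436 ± 158 CPM in KO-labelled libraries at 8 h, against 51.8 ± 5.05 CPM in their controls (4.79 ± 0.12), and 1567 ± 233 CPM in WT-labelled libraries, against 53.3 ± 6.46 CPM in theirs (4.88 ± 0.12). Gpx1, a glutathione peroxidase, changed by -0.62 ± 0.10 and -0.58 ± 0.10. No gene of these lists was called between the labels at any time by edgeR.

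Over the 36 libraries, which share treatments, the genes whose log2 CPM correlated most with each member were found among 9273 genes. For Cybb they were Slamf7 (Pearson r = 0.996), Slc31a2 (0.993) and Gch1 (0.991), and for Ncf1 they were Snx20 (0.991), Vasp (0.99) and Sp140 (0.989). For Ncf4 they were Prkcd (0.992), Rasa4 and Eva1b, for Rac2 Acaa1a (0.988), Fcer1g and Casp1, for Cyba Prdx5 (0.964), Ctsz and Elp5, and for Rac1 Morf4l1 (0.941), Bmp1 and Ube2d2a. Among the members themselves Cybb and Ncf1 were most alike (r = 0.987), and Ncf1 ranked 21 among the genes nearest to Cybb. Rac1 and Rac2 were least alike (r = 0.854). These are descriptions over libraries dominated by the LPS time course, and correlations over the 6 group means gave 0 of the same 18 genes.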

How the data were processed

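RNA-seq was made of 36 macrophage libraries, 6 in each group given by the labels. The authors deposited raw read counts per gene, 1 table per library, made with HTSeq on mm10 per the submitters' processing notes. The aligner, its annotation, the HTSeq version and whether strand was used were not given in the sources used here. Reads in exons shared by overlapping genes can therefore have been counted for the wrong gene or for neither. Symbols, positions and lengths came from GENCODE M21 (54165 of 54232 identifiers found, 0 rows without a gene), and promoters from RefSeq.

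The test was that of edgeR 4.0.16 (R 4.3.3) after filterByExpr (12957 genes), with TMM scaling, a robust quasi-likelihood fit of 6 group means, F tests and Benjamini-Hochberg adjustment. CPM and RPKM use TMM-scaled library sizes. Intervals are 95%. On simulated data for KO LPS 8 h against WT LPS 8 h, run on 12675 genes, 85% of genes changed by a log2 fold of 1 and 36% of those changed by 0.5 were called. The changed genes were drawn at random among expressed genes, and neither an LPS effect nor library sets were simulated. These shares therefore do not give the power for the 6 members, whose precision is shown by their intervals. Library totals of 8953489 to 18482551 counts limit the precision of low genes most. Of 90 replicate pairs, the lowest chi-square per gene was 2.08, so no libraries were merged. Replicate numbers follow accession order and serve only as names.

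The members, lists, tests and named-gene rule were chosen with earlier results of these data known. Named genes are the 6 members, up to 3 called genes in each direction of each list at 8 h or else the smallest p, and the 3 most correlated genes per member; not all of them are reported here. Alternatives were DESeq2 1.42.0 size factors or test, limma-voom (limma 3.58.1), library totals alone, no count filter, 1 CPM in 6 libraries, compared groups only, a term for library set, set A or set B alone, and leaving out 3 libraries with over 100 CPM of muscle markers or 6 labelled BMDM. A non-robust fit was added after seeing the data. No paired analysis was made because the labels carry no replicate numbers.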

Additional observations from a re-analysis of the deposited data

Results flagged for a closer look

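In 36 groups of 6 values (6 members in 6 groups), the highest or lowest library stood apart from the rest by Dixon's 95% criterion in 2 cases, where chance flags about 1 in 20 groups. Ncf4 in WT LPS 2 h replicate 1 stood at 187.7 CPM, and its gap to the next library took 0.799 of the range of the group. Cybb in WT control replicate 6 stood at 425.2 CPM, with a gap of 0.646 of the range.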

How the results depend on the processing

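No paired analysis was possible because the labels carry no replicate numbers. Compared with their values under the alternatives, 940 log2 fold changes of members kept their direction and side of the threshold, 16 lost a call, 17 gained one and 41 changed sign. The cause of each change was not tested.

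Under library totals alone the values that changed sign were, for Cyba, -0.08 (KO 2 h against control), -0.17 (KO 8 h against control), -0.1 (KO 8 h against 2 h), -0.08 (WT 8 h against control), -0.08 (WT 8 h against 2 h), -0.04 (KO against WT at 8 h), and -0.02 in KO and -0.08 in WT for the late minus early change. For Rac1 they were, in KO and WT, -0.22 and -0.19 at 2 h, -0.57 and -0.53 at 8 h, -0.35 and -0.34 between 2 and 8 h, -0.13 and -0.15 late minus early, and -0.04 for the 8 h interaction. For Rac2 they were -0.11 (KO) and -0.03 (WT) at 2 h, for Ncf1 -0.05 (KO against WT at 8 h) and -0.07 (KO late minus early), and for Ncf4 -0.02 (WT late minus early).

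Other sign changes concerned values not called in the reported fit. In set B alone KO against WT gave Cyba 0.02, Cybb 0.05 and Ncf1 0.02 at 2 h and Cyba -0.04 at 8 h, and Ncf1 gave -0.18 for KO late minus early. In set A alone KO against WT gave Cybb -0.01 in controls and 0.08 at 8 h and Ncf4 0.03 at 8 h, the 8 h interaction Cyba 0.07 and Cybb 0.09, and WT late minus early Rac1 -0.0017. WT late minus early also gave Cyba -0.02 and Rac1 -0.1 with no count filter and Rac1 -0.0028 with compared groups only. KO against WT at 8 h gave Ncf1 -0.0001 with compared groups only and -0.0013 without the muscle libraries, and the Cybb to Cyba ratio gave 0.02 at 2 h without them. The 8 h interaction of Rac1 was -0.01 with compared groups only and -0.0009 with DESeq2's size factors and with its test.

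Counts of members called moved by more than 1.5 times in set B alone (KO against WT 2 in controls and 2 at 8 h, interaction 1 at 2 h and 2 at 8 h). The late minus early contrast called 2 members in KO with DESeq2, the set term, set A or set B, and in WT 3 under library totals alone and 2 in set B. The calls gained in WT were lower, for Cybb and Ncf1 under library totals alone and for Ncf1 in set B. Smaller moves were seen at 2 h, where 3 members in KO and 4 in WT were called under library totals alone, against 4 and 6, 5 in KO with DESeq2 and with the set term, and 4 in WT with compared groups only. Genes called were 7266 (KO 2 h) and 7608 (WT 2 h) under library totals alone, against 4564 and 4910. KO against WT in controls called 16 genes, but 86 with DESeq2, 3 with limma-voom, 3 with no count filter, 1 with compared groups only, 7 in set A and 1407 in set B. At 2 h it called 3, but 5 with DESeq2, 9 with the set term, 9 in set A and 1398 in set B. At 8 h it called 13, but 41 under library totals alone, 6 with no count filter, 96 with DESeq2, 29 with limma-voom, 0 with compared groups only, 140 with the set term, 7 in set A, 4075 in set B, 4 without the muscle libraries and 20 without those labelled BMDM. The interactions called 0, but 147 at 2 h in set B, and at 8 h 4 with DESeq2, 1 with the set term and 2162 in set B.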
